A study of Mus musculus with 35 samples.

Results

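OT-I cytotoxic T lymphocytes (CTLs) kept for 24 h at pH 7.4 with IL-2 were compared with the same cultures at the start of the experiment. The libraries were chosen by their titles, as the 5 taken at the start and the 5 taken after 24 h at pH 7.4 with 200 IU/mL IL-2, so that 10 of the 35 libraries and 2 of the 7 groups entered the comparison. OT-I CTLs are CD8+ T cells from mice whose T cells carry 1 transgenic receptor for an ovalbumin peptide. After activation through CD3 and CD28 they had been expanded for days in IL-2, with fresh IL-2 medium at each dilution, so the start group had already grown in IL-2. All 10 libraries therefore came from activated cells that had received IL-2, and the start group carried the label of no treatment. The labels give the same low-glucose DMEM with serum for all groups. Another group, 24 h at pH 7.4 without IL-2 and likewise of 5 libraries, was used for values side by side and for a test of the difference that IL-2 made at 24 h. The comparison with the start mixes the passage of time, the change of medium and any change of cell density, and these cannot be told apart.

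IL-2 binds a receptor made of the chains IL-2Rα, IL-2Rβ and the common γ chain, which passes the signal through the kinases JAK1 and JAK3 to the transcription factor STAT5 and to PI3K and mTORC1. In CD8+ T cells this signal is known to drive growth, division and the expression of granzymes and perforin, and to hold back the FOXO1 programme of quiescence and lymph node homing. Hypoxia-inducible factors (HIFs) raise glycolytic enzymes when oxygen or iron is short, and ATF4, a factor of the integrated stress response, raises amino acid genes.

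Total counts on genes were 23159990 to 27400369 per library at the start and 23505962 to 30734999 after 24 h with IL-2. The entry for alignments to several places held 39.3% to 48.3% of the counts over all entries at the start, the highest share being in replicate 5. At 24 h it held 36.8% to 40.6%. Of 48709 genes, 13819 passed the filter on low counts. In the 10 libraries the first principal component held 70.8% of the variance and separated the 2 groups. The median standard deviation of a gene was 0.28 on the log2 scale among the start libraries and 0.18 among the 24 h libraries. Levels are given as CPM, the counts scaled to a common library size with TMM factors, in the order of replicates 1 to 5. Changes are given as log2 fold changes with a standard error. This error was derived as the absolute log2 fold change over the square root of the F statistic of edgeR's test.

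Of the 13819 genes tested, 8282 (59.9%) differed between 24 h with IL-2 and the start at an adjusted p under 0.05 by edgeR's quasi-likelihood test. Of these, 4009 (29% of the genes tested) were higher and 4273 (30.9%) were lower. Counts of list members called against the start stand beside these shares, and a share near them is no result about a list. At least a doubling or halving was reached by 844 of the higher and 1247 of the lower genes. The median log2 fold change over all tested genes was -0.03, with an interquartile range of -0.45 to 0.34. For 4439 genes (32.1%) the values of the 5 start libraries did not overlap those of the 5 libraries at 24 h. Because bulk RNA was measured, fewer cells of a kind and less RNA per cell cannot be told apart.

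**Figure D1:**
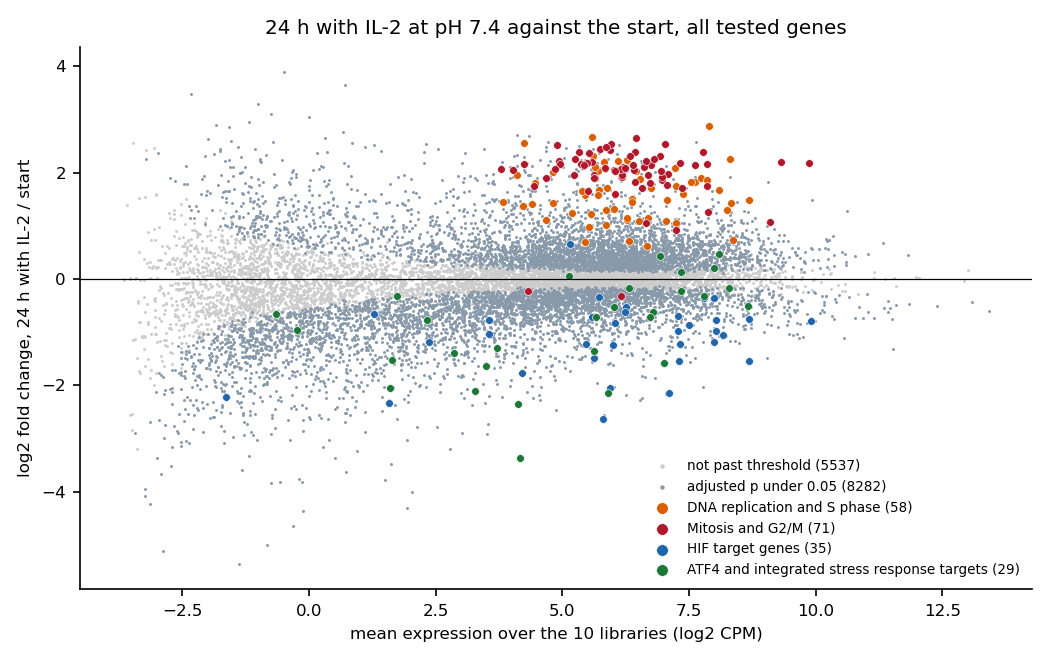
Each point is 1 of the 13819 tested genes, with mean expression over the 10 libraries on the x axis (log2 CPM) and the log2 fold change of 24 h with IL-2 over the start on the y axis. Genes of the S phase list (58) and the G2/M list (71) sat above 0 apart from 2 genes, and most HIF (35) and ATF4 (29) targets sat below it.

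Genes of the cell division cycle rose together. All 58 tested genes of DNA replication and S phase were called higher, against 29% of all genes, and their median change was 1.58 on the log2 scale. Of 71 genes of mitosis and G2/M, 69 were higher and 2 lower, with a median of 2.08. The median paired difference lay between 1.45 and 1.8 in the S phase list and between 1.73 and 2.34 in the G2/M list over the 5 pairs. Mki67, a marker of cycling cells, already stood at 208 to 376 CPM at the start.

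Rrm2 (chr12:24708241-24714146, GRCm38), a subunit of the ribonucleotide reductase that makes deoxynucleotides, showed the largest rise under the naming rule. Its level was 83.1, 102, 115, 70.5 and 72.6 CPM at the start and 614, 701, 694, 609 and 604 CPM after 24 h with IL-2, a log2 fold change of 2.88 ± 0.17 (SE; adjusted p = 4.0e-15 by edgeR). The lowest 24 h library was more than 5 times the highest start library. Tyms, thymidylate synthase, went from 21.2, 20.3, 20.3, 16.7 and 17.2 CPM to 116, 122, 127, 116 and 129 CPM, a log2 fold change of 2.67 ± 0.14. Rrm1, the other reductase subunit, rose by 2.25 ± 0.11. The list of nucleotide synthesis and one-carbon enzymes as a whole had 24 of 31 members higher and 3 lower, with a median of 0.95.

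Orc1, which marks replication origins, went from 5.75 to 10.3 CPM at the start to 41.0 to 51.0 CPM. The helicase and nuclease Dna2 rose from 7.93 to 13.6 CPM to 56.3 to 70.7 CPM, and Pclaf, a partner of the replication clamp PCNA, rose by 2.59 ± 0.20. Gen1, which resolves Holliday junctions, rose by 2.69 ± 0.15. None of these 4 genes had overlapping groups.

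The mitotic kinase Plk1 stood at 35.7, 25.6, 26.1, 21.7 and 21.5 CPM at the start and at 130, 160, 163, 158 and 149 CPM at 24 h, a log2 fold change of 2.54 ± 0.15 (adjusted p = 1.9e-15 by edgeR). Mki67 went from 376, 288, 329, 313 and 208 CPM to 1253, 1517, 1506, 1299 and 1355 CPM, a change of 2.20 ± 0.19. Kif20a, a kinesin of the cytokinetic furrow, rose by 2.64 ± 0.17, with 29.3% of its exon bases covered by exons on the opposite strand. Cenpe and Knl1, both of the kinetochore, rose by 2.54 ± 0.20 and 2.52 ± 0.19, and Melk and Iqgap3 by 2.52 ± 0.15 and 2.71 ± 0.20. The 2 members that went down were Psrc1, a microtubule-binding protein, at -0.32 ± 0.11, and Pttg1, securin, at -0.22 ± 0.10. The adjusted p of Pttg1 was 0.048, and this call held in 4 of 12 alternatives, against 11 of 12 for Psrc1.

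Among regulators of the G1 phase the changes were mixed, with 6 of 15 higher and 5 lower. Ccnd2, the main D cyclin of T cells, fell by 0.59 ± 0.10 on the log2 scale, from 690 to 1169 CPM to 554 to 711 CPM, and these ranges overlapped. Cdkn1b, the inhibitor p27, went from 210, 113, 119, 249 and 242 CPM to 109, 79.3, 87.3, 75.3 and 75.2 CPM, a change of -1.15 ± 0.18. Rbl1, the pocket protein p107, rose by 1.78 ± 0.11 and Cdkn2c, the inhibitor p18, by 1.38 ± 0.10.

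Without IL-2 the same lists lay on the other side of the start. After 24 h without IL-2 the median member of the S phase list was -1.67 from the start and that of the G2/M list -1.98, values that share the start libraries with those above. Tested directly at 24 h, 11111 of 13819 genes (80.4%) differed between cells with and without IL-2, 5433 (39.3%) being higher and 5678 (41.1%) lower with IL-2. All 58 S phase genes and 69 of 71 G2/M genes were higher with IL-2. Rrm2 differed by 6.18 ± 0.20 (adjusted p = 9.8e-23 by edgeR) and Mki67 by 3.78 ± 0.20 (adjusted p = 3.3e-17).

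**Figure D2:**
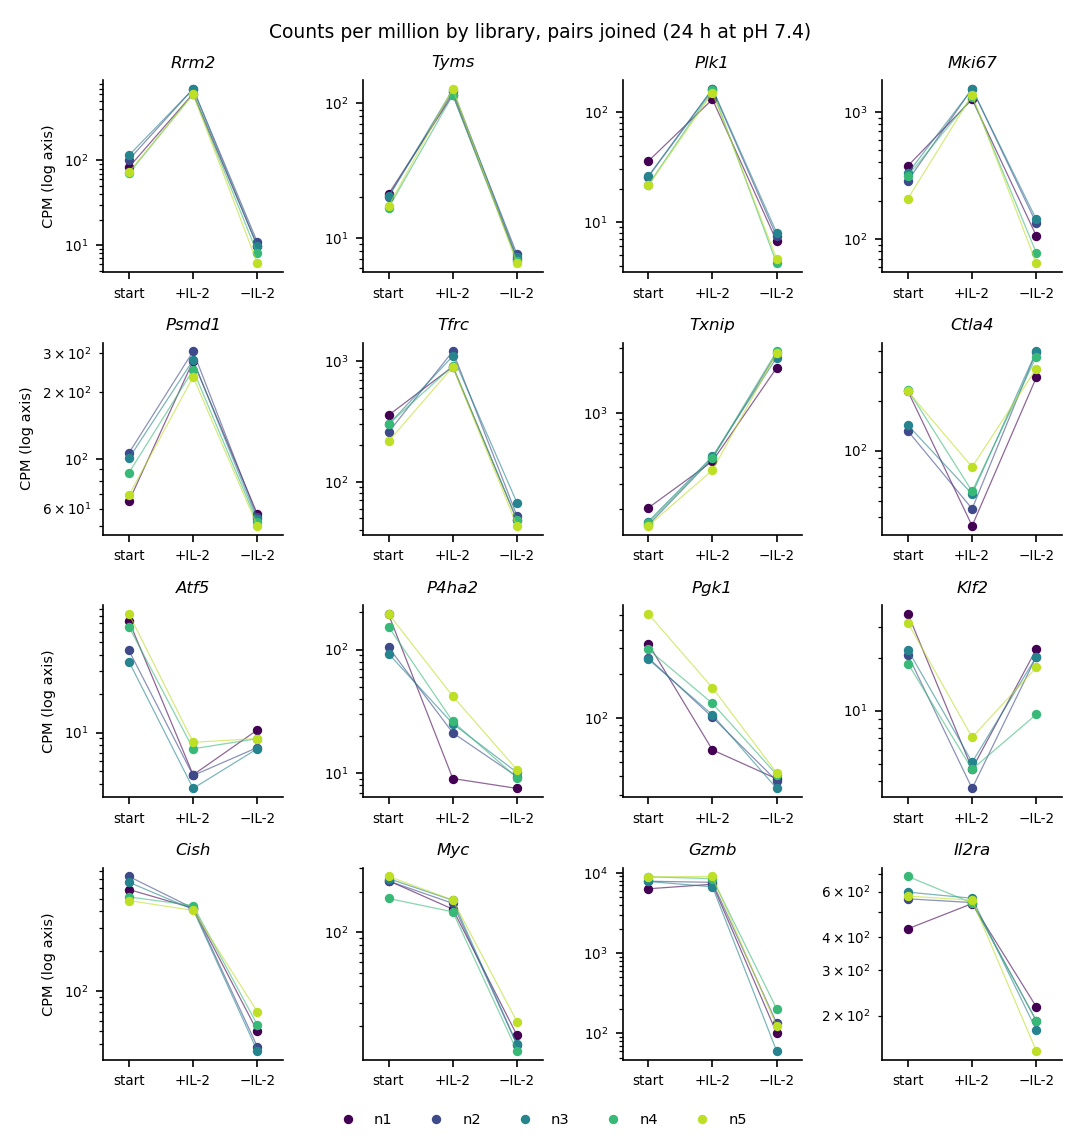
CPM on a log axis for 16 named genes in the start libraries, the libraries at 24 h with IL-2 and the libraries at 24 h without IL-2, with lines joining the libraries of 1 replicate (n1 to n5). Rrm2, Tyms, Plk1, Mki67, Psmd1 and Tfrc were highest with IL-2 in all 5 replicates, whereas Gzmb and Il2ra differed little between the start and 24 h with IL-2.

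Short promoter stretches are shown for 4 members, because the letters are known from such promoters. The lists of Mki67 and Ccnb2 (G2/M) and of Cish (IL-2 and STAT5 targets) moved mostly one way, whereas Arrdc4 is shown for its own change, since its list had 3 of 7 members higher and 3 lower. The sequences are RefSeq windows of build GRCm38.p6, written 5′ to 3′ on the strand of the gene. The capitals in Mki67 (chr7:135716380-135716529, minus strand) mark TTTGAA, the letters of the cell cycle homology region of G2/M promoters. Those in Ccnb2, mitotic cyclin B2 (chr9:70421555-70421704, minus strand), mark CCAAT. Those in Cish (chr9:107296599-107296689, plus strand) mark TTCNNNGAA, the letters STAT dimers bind. Those in Arrdc4 (chr7:68749308-68749458, minus strand) mark CACGTG, the E-box letters.
Mki67: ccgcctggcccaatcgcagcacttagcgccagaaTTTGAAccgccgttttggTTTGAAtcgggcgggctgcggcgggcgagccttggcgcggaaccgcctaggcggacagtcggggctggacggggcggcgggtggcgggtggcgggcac
Ccnb2: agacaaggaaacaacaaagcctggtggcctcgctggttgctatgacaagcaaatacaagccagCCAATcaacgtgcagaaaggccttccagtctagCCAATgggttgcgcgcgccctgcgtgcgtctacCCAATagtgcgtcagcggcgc
Cish: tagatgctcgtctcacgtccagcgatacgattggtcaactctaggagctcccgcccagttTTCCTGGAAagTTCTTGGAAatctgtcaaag
Arrdc4: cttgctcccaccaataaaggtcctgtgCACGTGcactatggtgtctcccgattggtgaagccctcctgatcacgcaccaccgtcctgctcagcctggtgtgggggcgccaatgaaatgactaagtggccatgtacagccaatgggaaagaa

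The motifs were searched on both strands in RefSeq windows from 250 bases before to 50 bases after each start site. For the G2/M list, 67 windows of 59 genes were found, of which 41 (61.2%) held TTTGAA and 53 (79.1%) held CCAAT. Of all 32851 windows, 17.9% held TTTGAA and 37.4% held CCAAT. For the S phase list, 7 of 54 windows (13%) held TTTGAA and 32 (59.3%) held CCAAT. Among 29 windows of 24 IL-2 and STAT5 target genes, 7 (24.1%) held TTCNNNGAA, against 8.3% of all windows. In the list of Arrdc4, 2 of 9 windows (22.2%) held CACGTG, against 7.15% of all windows. They belonged to Arrdc4 and Mlx, and no window of Txnip, another member, held these letters. A match describes the letters in a window and was not tested as a site. Ccnb2 itself rose by 2.11 ± 0.20, from 38.2 to 61.0 CPM to 189 to 218 CPM.

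Genes for building proteins and for clearing them rose as well. In ribosome biogenesis 48 of 58 tested genes were higher and 2 lower, with a median of 0.56. Lyar, a nucleolar growth factor, went from 42.6, 45.2, 47.2, 41.1 and 57.8 CPM to 105, 108, 105, 107 and 118 CPM, a change of 1.22 ± 0.09. Of 31 proteasome subunits 29 were higher and 0 lower, with a median of 0.73. Psmd1, a scaffold of the regulatory particle, rose by 1.66 ± 0.09, from 64.7 to 107 CPM to 234 to 306 CPM, and Psmd13 by 0.92 ± 0.06.

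Mitochondrial genes rose by less. Mitochondrial ribosomal proteins had 40 of 63 members higher and 2 lower, with a median of 0.30, and nuclear-encoded subunits of oxidative phosphorylation 41 of 72 higher and 6 lower, with a median of 0.32. In replicate 5 the median paired difference of the oxidative phosphorylation list was -0.01, while it was 0.24 to 0.49 in the other 4 pairs. Pyruvate entry and the TCA cycle had 21 of 32 members higher and 4 lower. Idh3a, of mitochondrial isocitrate dehydrogenase, and fumarase Fh1 rose by 0.96 ± 0.09 and 0.95 ± 0.07. Pdk1, the kinase that closes pyruvate entry and is a HIF target, fell by 1.04 ± 0.11 on the log2 scale, from 327 to 523 CPM to 142 to 246 CPM.

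Of 24 heat shock proteins 16 were higher and 4 lower, with a median of 0.31, and of 28 chaperones and unfolded protein response genes of the endoplasmic reticulum 18 were higher and 6 lower, with a median of 0.35. The cochaperone Stip1 rose by 1.05 ± 0.07. The mitochondrial chaperonin Hspd1 and the cytosolic Hsp90aa1 rose by 1.07 ± 0.10 and 0.96 ± 0.10, although only 57.9% and 52.5% of their 50-base windows were unique to the gene. Sdf2l1, of the endoplasmic reticulum, rose by 1.09 ± 0.12.

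Hspa1a was listed at 2.03, 0.33, 0.258, 8.14 and 9.80 CPM at the start and at 0.122, 0.0347, 0, 0.166 and 0.226 CPM at 24 h. Its neighbour and near-copy Hspa1b went from 1.96, 0.842, 0.43, 11.3 and 12.6 CPM to 0.0406, 0.243, 0.205, 0.29 and 0.135 CPM. The start values fell in a lower range in replicates 2 and 3 and in a higher range in replicates 4 and 5, and no start library overlapped the 24 h libraries. The log2 fold changes were -4.99 ± 0.78 and -4.64 ± 0.70. Because 33.7% and 37.7% of their windows were unique, the split of reads between these 2 genes is uncertain.

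HIF targets fell. Of 35 tested targets 29 were lower and 1 higher, against 30.9% lower among all genes tested, with a median of -1.03. P4ha2 (chr11:54100095-54131665), a collagen prolyl hydroxylase subunit, went from 192, 104, 92.4, 152 and 194 CPM to 9.09, 21.2, 25.2, 26.2 and 42.0 CPM, a log2 fold change of -2.63 ± 0.21 (adjusted p = 4.6e-12 by edgeR). The angiogenic factor Vegfa went from 224, 71.4, 63.1, 166 and 171 CPM to 12, 34.6, 28.2, 43.7 and 50.9 CPM, a change of -2.05 ± 0.26. Both genes had groups that did not overlap, and the lowest 24 h value of each was in replicate 1.

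Ndrg1 fell by 2.14 ± 0.21 on the log2 scale, Ero1l, an oxidase of the endoplasmic reticulum, by 1.54 ± 0.15, and Ddit4, an inhibitor of mTORC1, by 1.58 ± 0.19. Egln1, the prolyl hydroxylase PHD2 that marks HIF for destruction and is itself a HIF target, went from 427, 286, 292, 425 and 565 CPM to 100, 173, 185, 192 and 233 CPM, a change of -1.18 ± 0.13. Bnip3, of mitophagy, fell by 0.97 ± 0.21, with overlapping groups, a call lost in 1 of 12 alternatives, and 52.8% of its windows were unique. The glucose transporter Slc2a1 had a log2 fold change of -0.36 ± 0.25, with an adjusted p of 0.21.

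Glycolysis followed in part, with 14 of 21 tested genes lower, 1 higher and a median of -0.66. After 24 h without IL-2 the median of this list was -2.90 from the start. Aldoc, an aldolase, went from 245, 202, 199, 193 and 227 CPM to 17, 37.9, 50.5, 50.4 and 89.9 CPM, a change of -2.23 ± 0.21. Aldoa, the abundant aldolase, went from 5318, 3914, 3445, 4758 and 6656 CPM to 910, 1879, 1889, 2343 and 2860 CPM, a change of -1.32 ± 0.16. Pgk1 fell by 1.56 ± 0.14, Gpi1 by 1.10 ± 0.12, Pkm by 0.76 ± 0.13 and Ldha by 0.41 ± 0.12. Without replicate 1 the change of Ldha was -0.20, with an adjusted p of 0.088 by edgeR, and only 46.1% of the windows of Pgk1 were unique. The glucose transporter Slc2a3 fell by 1.49 ± 0.19, from 524 to 1329 CPM to 121 to 600 CPM. Hexokinase Hk2, the enzyme that commits glucose, had 294, 93.3, 80.8, 199 and 244 CPM at the start and 130, 195, 160, 198 and 217 CPM at 24 h, and a log2 fold change of 0.13 ± 0.21 (adjusted p = 0.61 by edgeR).

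The size of the HIF and glycolysis changes differed between pairs. The median paired difference of HIF targets was -2.09, -0.52, -0.28, -1.11 and -0.99 in replicates 1 to 5, and that of glycolysis genes was -1.78, -0.38, -0.27, -0.38 and -0.53. The mean level of HIF targets was 6.99, 5.89, 5.81, 6.88 and 7.08 log2 CPM at the start and 4.81, 5.49, 5.51, 5.66 and 6.0 log2 CPM at 24 h. Replicates 2 and 3 thus began low, and replicate 1 ended lowest. At 24 h without IL-2 the 5 libraries lay between 4.35 and 4.47 log2 CPM. Leaving out each replicate in turn and the other alternatives gave medians from -1.14 to -0.78 for HIF targets and from -0.79 to -0.46 for glycolysis.

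**Figure D3:**
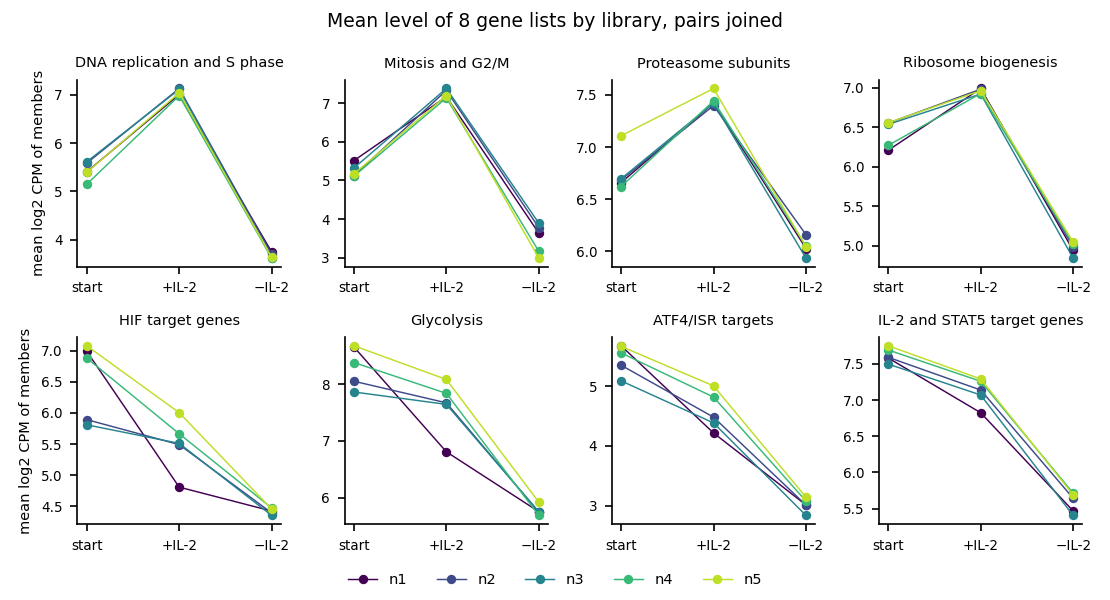
Mean log2 CPM of the tested members of 8 lists in each library at the start, at 24 h with IL-2 and at 24 h without IL-2, with the libraries of 1 replicate joined. S phase and G2/M genes rose from the start to 24 h with IL-2 in all 5 replicates. Without IL-2 the G2/M list was lower in replicates 4 and 5 (3.16 and 2.99 log2 CPM) than in replicates 1, 2 and 3 (3.64 to 3.89 log2 CPM). HIF targets at the start were lower in replicates 2 and 3 (5.89 and 5.81 log2 CPM) than in replicates 1, 4 and 5 (6.88 to 7.08 log2 CPM).

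Targets of ATF4 and the integrated stress response fell too. Of 29 tested targets 20 were lower and 2 higher, with a median of -0.71. The median from the start was -2.57 after 24 h without IL-2, so the list stood below the start in both 24 h groups. Atf5 (chr7:44812256-44816658), a transcription factor of this response, showed the largest fall under the naming rule. Its level went from 73.2, 43.2, 35.4, 65.9 and 82.9 CPM to 4.70, 4.65, 3.69, 7.49 and 8.40 CPM, a log2 fold change of -3.37 ± 0.15 (adjusted p = 1.4e-17 by edgeR). Ddit3, the factor CHOP, went from 58.6, 25.7, 21.9, 41.1 and 58.0 CPM to 8.40, 6.56, 7.22, 8.15 and 9.12 CPM, a change of -2.35 ± 0.16. The pseudokinase Trib3 fell by 2.15 ± 0.20 and the secreted glycoprotein Stc2 by 1.35 ± 0.18, while Atf4 itself fell by 0.51 ± 0.08 and asparagine synthetase Asns by 0.62 ± 0.12. The 2 members that were higher belong to serine synthesis, Phgdh and Psat1, at 0.44 and 0.48. Of 20 aminoacyl-tRNA synthetases 9 were higher and 4 lower, and Sars, the seryl-tRNA synthetase, fell by 1.10 ± 0.09. Among 17 amino acid transporters 3 were higher and 7 lower, and the glycine transporter Slc6a9 fell by 2.07 ± 0.16, with 30.3% of its exon bases under exons of the opposite strand.

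Most genes of the IL-2 receptor and its signalling chain did not pass the test. Il2ra, encoding IL-2Rα, had 432, 563, 597, 686 and 576 CPM at the start and 539, 544, 565, 542 and 555 CPM at 24 h, a log2 fold change of -0.06 ± 0.10 (adjusted p = 0.66 by edgeR). Il2rb, encoding IL-2Rβ, fell by 0.31 ± 0.10 on the log2 scale, from 942 to 1748 CPM to 870 to 1211 CPM, and without replicate 3 its adjusted p was 0.062. Il2rg, for the common γ chain, and Jak1 had log2 fold changes within 0.02 of 0, and Jak3 fell by 0.67 ± 0.13, with overlapping groups. For Il2rg, 30.5% of the exon bases lay under another gene on the same strand. Stat5a and Stat5b had changes of 0.15 ± 0.09 and -0.08 ± 0.07, neither past the threshold. Of the 13 members of this list 2 were higher, 3 lower and 8 not called.

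Target genes of IL-2 and STAT5 stood lower after 24 h with IL-2 than at the start. Of 30 tested targets 21 were lower and 1 higher, with a median of -0.51, and the median was below 0 in 5 of 5 pairs, from -0.77 to -0.46. The kinase gene Pim2 went from 385, 312, 280, 299 and 395 CPM to 113, 111, 119, 108 and 142 CPM, a change of -1.49 ± 0.13 (adjusted p = 3.0e-11 by edgeR). Pim1 went from 354, 362, 331, 387 and 388 CPM to 135, 174, 170, 193 and 179 CPM, a change of -1.11 ± 0.08. Neither gene had overlapping groups.

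Cish, a feedback inhibitor of the receptor, went from 585, 734, 664, 514 and 483 CPM to 423, 423, 413, 443 and 407 CPM, a log2 fold change of -0.51 ± 0.17 (adjusted p = 0.0096 by edgeR), and without replicate 2 its adjusted p was 0.054. The 24 h libraries lay in a narrow band below all start libraries. Socs1, Socs2 and Socs3, inhibitors of cytokine signalling, fell by 0.50 ± 0.16, 0.38 ± 0.09 and 0.99 ± 0.19, and without replicate 5 the adjusted p of Socs1 was 0.084. Tnfrsf18, the costimulatory receptor GITR, fell by 1.30 ± 0.12, with 27.2% of its exon bases under exons of the opposite strand. Bcl2, the survival gene, fell by 0.46 ± 0.09. At 24 h without IL-2 the median member stood at -1.93 from the start, and Cish was 3.10 ± 0.18 higher with than without IL-2 (adjusted p = 4.0e-16 by edgeR).

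Myc, the transcription factor of growth, went from 241, 240, 250, 178 and 260 CPM to 148, 164, 173, 142 and 174 CPM, a log2 fold change of -0.54 ± 0.11 (adjusted p = 9.9e-05 by edgeR). The groups did not overlap. With IL-2 it was 3.31 ± 0.12 higher than without (adjusted p = 8.2e-22). Its antagonists Mxd1 and Mxi1 fell by 1.26 ± 0.10 and 1.48 ± 0.21, and Mxd3, which is known to be expressed in S phase, rose by 1.76 ± 0.19.

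Named cytotoxic genes went different ways. Gzmb (chr14:56258838-56262260), encoding granzyme B, had 6323, 7856, 7800, 8916 and 8894 CPM at the start and 7211, 7607, 6696, 8458 and 9010 CPM at 24 h, a log2 fold change of -0.04 ± 0.16 (adjusted p = 0.86 by edgeR). Without IL-2 its mean was 124 CPM, and the difference that IL-2 made at 24 h was 6.05 ± 0.20 (adjusted p = 1.1e-22). Prf1, perforin, went from 387, 603, 376, 686 and 521 CPM to 164, 412, 260, 562 and 501 CPM, a change of -0.51 ± 0.16, lower in 5 of 5 pairs although the groups overlapped. The adjusted p of Prf1 was 0.0067 with the replicate block and 0.26 without it.

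Of 19 genes of the perforin and granzyme list 5 were higher and 6 lower, with a median of -0.04. These shares were near the 29% higher and 30.9% lower of all genes tested. Gzme went from 156, 198, 112, 313 and 310 CPM to 211, 452, 278, 685 and 585 CPM, a rise of 1.00 ± 0.18 in 5 of 5 pairs with overlapping groups. Its neighbours Gzmf and Gzmd rose by 1.05 ± 0.16 and 0.83 ± 0.17, and Gzmg fell by 0.52 ± 0.18. Between 78.1% and 80.6% of the windows of these 4 genes were unique, and the calls of Gzmd, Gzme, Gzmf and Gzmg were lost without the block, at adjusted p of 0.13, 0.08, 0.082 and 0.52 by edgeR. The call of Gzmg held in 8 of 12 alternatives and its change was -0.26 without replicate 1, with an adjusted p of 0.088, whereas those of the other 3 genes held in 11 of 12. Serpinb6b, an inhibitor of proteases, fell by 1.33 ± 0.15.

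Among 18 tested cytokines and chemokines 6 were higher and 5 lower, near the 29% and 30.9% of all genes tested. Ifng, encoding interferon γ, went from 5.79, 13.6, 15.6, 10.4 and 11.5 CPM to 18.5, 25.2, 18.4, 30.5 and 24.1 CPM, a rise of 1.00 ± 0.24 (adjusted p = 0.00075 by edgeR), with 26% of its exon bases under another gene on the same strand. Cxcl10 rose by 2.13 ± 0.43, from 0.256 to 1.01 CPM to 1.49 to 5.11 CPM. The chemokine Ccl5 went from 45.3, 53.2, 53.3, 39.2 and 51.0 CPM to 19.5, 15, 19.5, 13.7 and 12.9 CPM, a fall of 1.61 ± 0.12 on the log2 scale, and lymphotoxin β, Ltb, fell by 1.25 ± 0.15.

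In the list of the TCR complex, CD8 and proximal kinases 15 of 22 were lower and 2 higher, with a median of -0.27. Cd3d and Cd3g, chains of the complex, fell by 0.84 ± 0.11 and 0.64 ± 0.11. Cd8a went from 1094, 1082, 1178, 1030 and 1076 CPM to 1231, 860, 926, 824 and 848 CPM, a change of -0.23 ± 0.08 that held in 7 of 12 alternatives. Inhibitory receptors had 10 of 20 members lower and 6 higher. Ctla4 went from 228, 131, 142, 233 and 228 CPM to 35.2, 44.6, 54.7, 56.9 and 79.7 CPM, a change of -1.85 ± 0.18, and Lag3 fell by 1.72 ± 0.13, whereas the collagen receptor Lair1 rose by 1.2 ± 0.14. The costimulatory receptor Tnfrsf9, 4-1BB, fell by 1.03 ± 0.14, from 873 to 1532 CPM to 346 to 780 CPM.

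Most FOXO targets fell. Of 22 tested 16 were lower and 3 higher, against 30.9% and 29% of all genes. Their median was -0.64, with pair medians from -1.0 to -0.51. Klf2, the factor that keeps homing receptors expressed, went from 35.4, 20.7, 22.1, 18.5 and 31.5 CPM to 4.66, 3.61, 5.09, 4.63 and 7.04 CPM, a change of -2.34 ± 0.16 (adjusted p = 3.8e-14 by edgeR). S1pr1, the receptor for exit from lymph nodes, went from 65.8, 43.4, 48.3, 53.1 and 56.4 CPM to 24.3, 14.1, 19.8, 10.3 and 11.9 CPM, a change of -1.82 ± 0.12. Neither had overlapping groups. At 24 h without IL-2 the median FOXO target stood at 0.99 from the start, whereas Klf2 stood at -0.52 ± 0.14 (adjusted p = 0.0016 by edgeR). With against without IL-2, 20 of the 22 were lower, against 41.1% of all genes, and Klf2 was at -1.82 ± 0.16 (adjusted p = 1.9e-12 by edgeR).

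Tcf7, the stem-like factor TCF-1, went from 85.8, 74.3, 86.9, 67.6 and 80.1 CPM to 50.4, 43.8, 53.5, 32.2 and 29.9 CPM, a change of -0.94 ± 0.09, while its mean without IL-2 was 867 CPM. The difference that IL-2 made was -4.38 ± 0.10 for Tcf7 (adjusted p = 2.2e-26 by edgeR) and -5.68 ± 0.19 for Il7r, the IL-7 receptor (adjusted p = 4.0e-23). From the start Il7r fell by 0.60 ± 0.21 to between 1.04 and 3.57 CPM, a call that held in 8 of 12 alternatives. Ccr7 fell by 0.57 ± 0.20, a call that held in 7 of 12. Eomes rose by 0.78 ± 0.09. Ly6c1, a surface marker, rose from 2 to 7 counts per library to 34 to 84 counts, a log2 fold change of 3.90 ± 0.32, with 67.2% of its windows unique. Over the whole list of 28 memory and homing genes 9 were higher and 16 lower, against 29% and 30.9% of all genes.

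In the BCL2 family of survival and death genes 8 of 15 tested members were lower and 4 higher, against 30.9% and 29% of all genes, and the pair medians ran from -0.39 to 0.12. Bbc3, encoding the BH3-only protein PUMA, went from 70.9, 39.3, 26, 35 and 40.1 CPM to 9.53, 8.23, 8.17, 11.3 and 10.9 CPM, a change of -2.12 ± 0.18, with no overlap. Bmf fell by 1.85 ± 0.16 and Bcl2l11, encoding BIM, by 1.28 ± 0.12, from 234 to 363 CPM to 93.9 to 169 CPM. Bak1, of the executioner kind, rose by 0.48 ± 0.06. The largest rise of the list was that of Bcl2a1d, a survival gene whose counts are uncertain because it has near-identical copies, at 1.79 ± 0.31. Among 25 p53 targets 13 were lower and 3 higher. Tsc22d3, the glucocorticoid-induced leucine zipper, fell by 2.46 ± 0.17 and the integrin chain Itgb3 by 2.17 ± 0.12.

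Txnip and Arrdc4, the main targets of the glucose sensor MondoA, rose between the start and 24 h with IL-2. Txnip went from 202, 151, 161, 157 and 150 CPM to 444, 465, 481, 472 and 382 CPM, a change of 1.44 ± 0.09 (adjusted p = 7.6e-15 by edgeR). Arrdc4 had 6, 0, 4, 3 and 3 counts at the start and 53, 30, 31, 32 and 15 counts at 24 h, a log2 fold change of 3.30 ± 0.32. The groups of both genes did not overlap. Without IL-2 the mean of Txnip was 2593 CPM, and it was -2.53 ± 0.09 with against without IL-2 (adjusted p = 5.0e-22). The other 5 members of the list had changes from -0.73 to 0.44.

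Interferon-stimulated genes rose in part, with 22 of 53 higher and 9 lower, a median of 0.18. Gbp2, a guanylate-binding protein, went from 217, 153, 210, 234 and 262 CPM to 753, 532, 574, 520 and 524 CPM, a change of 1.44 ± 0.18. The immunity GTPase Irgm1 rose by 1.23 ± 0.15 and Ifit2 by 1.14 ± 0.14, and none of the 3 had overlapping groups. For this list the median from the start was 0.27 without IL-2.

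Some genes changed by a like amount with and without IL-2. They were chosen because the 95% interval of the difference at 24 h lay within 0.5 of 0 on the log2 scale, so the likeness is a description. Among the rises, Gbp2 stood at 1.44 from the start with IL-2 and 1.36 without and the damage kinase Atm at 1.15 and 1.16. The exchanger Slc24a3 stood at 1.26 and 1.48, and the helicase Recql, with 37.7% of its exon bases under exons of the opposite strand, at 1.08 and 0.75. Among the falls, Espn, an actin bundler, stood at -2.37 and -2.26, the sulfotransferase Sult2b1 at -2.03 and -2.20, and Gsn, gelsolin, at -1.82 and -2.05. Clybl stood at -1.65 and -1.47, and Sfn, the protein 14-3-3σ, at -1.51 and -1.48.

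The genes whose paired differences varied most among the 5 replicates were Ankrd37, Fos, Mgarp, Itga7 and Plcxd1. Ankrd37, a HIF target, had 104, 4.54, 3.99, 59.8 and 111 CPM at the start and 3.81, 14, 13.2, 17.4 and 27.9 CPM at 24 h. It stood lower at 24 h in replicates 1, 4 and 5 and higher in replicates 2 and 3, and its call held in 9 of 12 alternatives. Fos, an immediate early gene, had 14.7, 29, 30, 3.46 and 2.15 CPM at the start and 17.3, 9.65, 8.66, 22.4 and 30.1 CPM at 24 h. Its lower and higher libraries changed places, and its log2 fold change was -0.11 ± 0.53 (adjusted p = 0.87 by edgeR). Cxcr4, a chemokine receptor, had 67.0, 7.36, 8.12, 40.7 and 64.2 CPM at the start and 7.06, 13.2, 16.8, 13.3 and 20.3 CPM at 24 h, so that replicates 2 and 3 again stood apart at the start. The part of any difference in culture in this split was not tested.

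**Figure D4:**
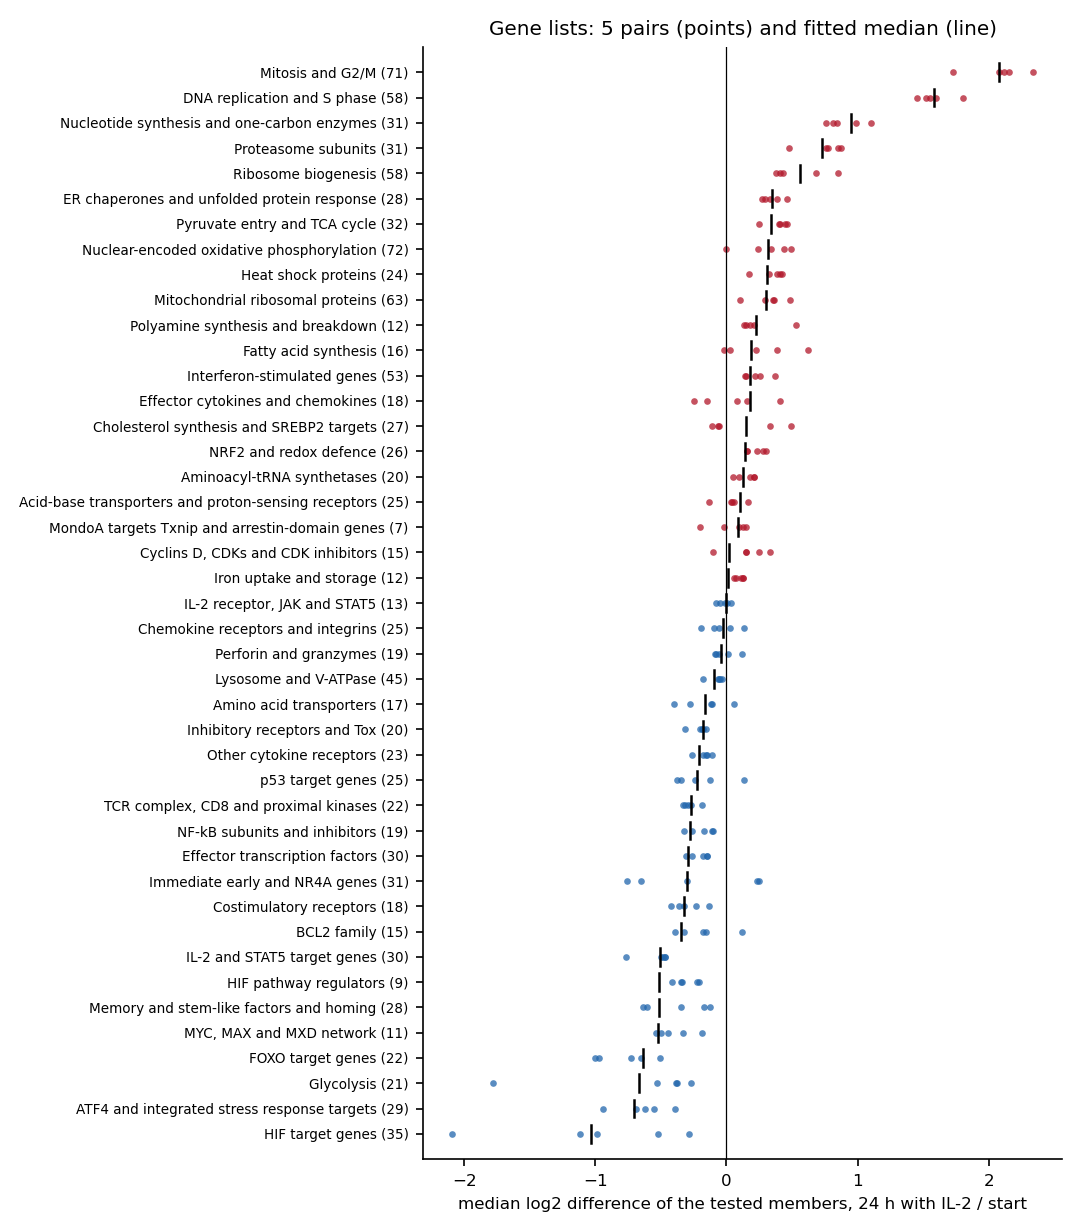
For each of 43 gene lists, the points give the median log2 difference of its tested members (24 h with IL-2 over the start) in each of the 5 pairs, and the black line gives the median of the fitted log2 fold changes, with the number of tested members in brackets. G2/M (fitted median 2.08) and S phase genes (1.58) were at the top and HIF targets (-1.03) at the bottom, where the pairs spread from -2.09 to -0.28.

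The libraries carried the markers of CD8+ T cells. All 11 CD8 T cell markers were detected, with a summed level of 12856 to 16499 CPM at the start and 12257 to 15113 CPM at 24 h. Gzmb was the largest part of this sum. Of the 11 markers 8 were called lower and 1 higher, against 30.9% and 29% of all genes, with a median of -0.34. Of 7 markers of B or plasma cells 2 passed the filter on low counts, and Ms4a1 and Pax5 were at 0 in all 10 libraries. Their sum was 171 to 324 CPM at the start and 61.3 to 152 CPM at 24 h, nearly all of it Ighm, and the part of these cells in the changes above was not tested. Markers of monocytes, macrophages or dendritic cells summed to 8.92 to 12 CPM and 5.43 to 11.3 CPM, with Siglech at 0. The granulocyte or mast cell list summed to 28.9 to 51.5 CPM and 9.20 to 21.7 CPM, mostly Kit, with Elane at 0. The CD4 or regulatory T cell list summed to 183 to 297 CPM and 52.5 to 112 CPM, mostly Ctla4, and Cd4 was at most 0.892 CPM. NK cell markers summed to 1350 to 1651 CPM and 1560 to 1807 CPM, mostly through Nkg7 and Eomes, which CTLs also express, with Klra8 at 0. The other member past the filter, Klrb1c, went from 83.3 to 94.9 CPM at the start to 43.0 to 45.8 CPM at 24 h. The part of NK cells in this fall was not tested. Erythroid and platelet genes reached at most 0.274 CPM, and the stromal or endothelial list summed to 29.4 to 36.8 CPM and 31.5 to 40.1 CPM, with Col3a1 at 0.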

How the data were processed

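RNA from 35 cultures was measured by sequencing of stranded libraries of polyadenylated RNA, as single reads, after Ficoll had removed dead cells. Per the labels, the authors used cutadapt 1.8, STAR 2.5.2b and HTSeq 0.6.1 with build GRCm38. The annotation release, the read length and the strand setting of the counting are not given in the sources used here. The authors deposited raw counts per gene with no normalization, and reads aligned to several places were not assigned to genes, so genes with near-identical copies can be undercounted. Table entries without a gene did not enter library sizes or tests. Of the counts over all entries they held 39.3% to 48.3% (start) and 36.8% to 40.6% (24 h with IL-2) as multiply aligned. At the start they held 0.878% to 0.919% as ambiguous. Symbols came from GENCODE M21 for 48349 of 48709 identifiers.

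In R 4.3.3, edgeR 4.0.16 kept 13819 genes (filterByExpr, minimum count 10, over 7 groups), applied TMM scaling and fitted 1 robust quasi-likelihood model to all 35 libraries with terms for group and replicate number (the block). The common biological coefficient of variation was 0.120. Contrasts compared 24 h with IL-2 with the start and with 24 h without IL-2, and 24 h without IL-2 with the start, the last for values side by side. The threshold was a Benjamini-Hochberg adjusted p of 0.05. The pairing follows from the series' design, in which each biological replicate was cultured in every condition. Within this comparison, libraries with the same number deviated together (correlation 0.124 to 0.402 in all 5 pairs), while the 20 pairs with unlike numbers had a median of -0.034. Nothing more says how the cultures of a replicate relate, so p-values measure the spread between samples of this series. That spread was estimated from all 35 libraries, not from the groups compared alone. The start libraries spread more (median standard deviation 0.28 on the log2 scale) than those at 24 h with or without IL-2 (0.18 each). With only the groups compared, 6650 genes were called, against 8282. Of 20 within-group pairs of libraries none agreed within sampling noise (lowest chi-square per degree of freedom 8.22).

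On simulated counts for this comparison (13460 genes tested) the fit called 34 of 64 genes changed by 0.5, 52 of 65 changed by 1 and 65 of 65 changed by 2 on the log2 scale, and 13 of 13266 unchanged genes. Only 200 genes were set to change, with random sign, and the simulated replicates had no effect of their own. In the data 59.9% of genes were called, so these rates cannot speak to the scaling or the block here.

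The libraries, the 43 gene lists and the 8 marker lists were chosen with earlier results of these data known, and the lists were written by hand from general knowledge. Genes were named by a rule. It takes the 12 largest rises and 12 largest falls among called genes whose mean log2 CPM reached 3, the same sign in 5 of 5 pairs and a gene symbol that is no clone or predicted name, and up to 3 members of each list under the same conditions, of which the text gives some, and 2 genes under the rule are not reported here. It adds a fixed panel of IL-2 and CTL genes and the 5 genes with the most variable paired differences. It also adds, under the same conditions, the 5 largest rises and 5 largest falls among genes alike with and without IL-2. For these the 95% interval of the difference at 24 h lay within 0.5 of 0 on the log2 scale. Hspa1a, Hspa1b, Ly6c1, Arrdc4, Cxcl10, Aldoa, Gpi1, Pkm, Ldha, Psrc1, Pttg1, Ccnb2, Bnip3, Ddit4, Bmf, Bcl2a1d, Gzmd, Gzmg, Eomes, Atf4, Asns, Cxcr4, Stc2, Ero1l, Phgdh and Psat1 were added after their values were seen. The share of unique windows of a gene counts 50-base stretches of its GENCODE M21 transcripts that no other gene has, a length set without knowledge of the reads. The alternatives were RLE scaling, total counts, a run of DESeq2 1.42.0, a filter loosened to any gene with 1 count or tightened to 10 counts in every library, only the groups compared, no block, leaving out each replicate, and a required 2-fold change.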

Additional observations from a re-analysis of the deposited data

Results flagged for a closer look

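In 10 of the named values 1 library stood apart from the other 4 of its group by Dixon's criterion (gap over range above 0.71), among 294 groups of 5 examined. Chance alone gives about 1 in 20. At 24 h with IL-2, replicate 1 stood apart in 5 genes. It was highest for Tcp11l2 at 14.3 CPM (others 9.57 to 10.1 CPM), for Gbp2 at 753 CPM (520 to 574 CPM), for Irgm1 at 489 CPM (374 to 391 CPM) and for Cd8a at 1231 CPM (824 to 926 CPM). It was lowest for Itgb3 at 33.7 CPM (66.1 to 78.4 CPM). Replicate 5 at 24 h was highest for Lyar at 118 CPM (105 to 108 CPM).

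Among the start libraries, replicate 5 was lowest for Knl1 at 16.9 CPM (29.8 to 37.1 CPM). It was highest for Prdx1, a peroxiredoxin, at 460 CPM (242 to 289 CPM), and also had the highest share of multiply aligned counts. Replicate 1 was highest for Txnip at 202 CPM (150 to 161 CPM) and replicate 4 lowest for Myc at 178 CPM (240 to 260 CPM). Each of these 10 genes was called between the start and 24 h with IL-2.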

How the results depend on the processing

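The count of genes that differed between 24 h with IL-2 and the start, 8282, was 7505 to 7987 without 1 replicate, 7576 with no replicate block, 6650 with only the groups compared, 7074 with the stricter filter and 8336 by DESeq2. The 4009 higher genes were 3556 to 4015 and the 4273 lower genes 3735 to 3990 without 1 replicate. The block moved none of the 4 counts of calls by more than 1.5 times. Requiring a 2-fold change as well left 2091 genes, 844 higher and 1247 lower, and 5657 of the 11111 genes that differed between cells with and without IL-2, since this alternative asks for more. With total-count scaling 41.8% of the calls were higher, against 48.4%.

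Signs turned in 7 genes that did not pass the threshold. Without 1 replicate, Il2ra ranged from -0.15 to 0.022, Il2rg from -0.030 to 0.057, Jak1 from -0.044 to 0.065, Gzmb from -0.10 to 0.043, Slc2a1 from -0.60 to 0.13, Hk2 from -0.10 to 0.42 and Fos from -0.66 to 0.52. Il2rg was 0.0082 with RLE scaling and by DESeq2 and 0.024 with the looser filter. Jak1 was -0.059 with total counts, -0.0064 with the stricter filter and -0.0088 with only the groups compared. With no replicate block Hk2 was -0.018 and Fos 0.15, and Fos was 0.47 with only the groups compared. The cause of these shifts was not tested. The medians of the IL-2 receptor, D cyclin, MondoA and iron lists changed sign under some alternative.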

Other observations

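Tfrc, the transferrin receptor, went from 357, 258, 299, 300 and 216 CPM at the start to 901, 1208, 1102, 915 and 897 CPM after 24 h with IL-2, a log2 fold change of 1.82 ± 0.13 (adjusted p = 1.5e-13 by edgeR), while of the 12 iron genes 5 were higher and 2 lower, with a median of 0.01, so that the share called was near the 59.9% of all genes. Odc1, the first enzyme of polyamine synthesis, rose by 1.02 ± 0.11 and Smox, which oxidises spermine, fell by 2.01 ± 0.15. Of 12 polyamine genes 7 were higher and 4 lower. In fatty acid synthesis 6 of 16 genes were higher and 2 lower, the desaturase Fads2 rising by 1.37 ± 0.13 and Acsl5 by 1.06 ± 0.08. In cholesterol synthesis 7 of 27 were higher, near the 29% of all genes, and 3 lower, and the cholesterol exporter Abcg1 fell by 1.31 ± 0.10. NRF2 and redox genes had 12 of 26 higher and 3 lower, with Txnrd1, a thioredoxin reductase, at 1.08 ± 0.09 and Prdx1 at 1.15 ± 0.12.

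Among 25 tested acid-base transporters and proton-sensing receptors 6 were higher and 8 lower, near the 29% and 30.9% of all genes. Gpr65, a proton-sensing receptor, went from 51.5 to 57.7 CPM to 61.9 to 81.4 CPM, a rise of 0.31 ± 0.09. The aromatic amino acid carrier Slc16a10 rose by 1.04 ± 0.13 and the proton channel Hvcn1 fell by 1.30 ± 0.11, with 44.2% of its exon bases under exons of the opposite strand. The counts that follow stand beside 29% higher and 30.9% lower among all genes, and a share near those is no result about a list. Of the lists without values so far, NF-kB subunits and inhibitors had 11 of 19 members lower and 2 higher, lysosome and V-ATPase genes 19 of 45 lower and 8 higher, effector transcription factors 14 of 30 lower and 7 higher, and immediate early and NR4A genes 14 of 31 lower and 2 higher. The pair medians of the immediate early list were -0.30, -0.76, -0.65, 0.23 and 0.25 in replicates 1 to 5, so that replicates 4 and 5 went the other way. Other cytokine receptors had 13 of 23 lower and 3 higher, costimulatory receptors 10 of 18 lower and 2 higher, chemokine receptors and integrins 8 of 25 lower and 4 higher, and HIF pathway regulators 6 of 9 lower and 1 higher. The MYC, MAX and MXD network had 7 of 11 lower and 2 higher.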
